A study of Homo sapiens with 8 samples.

Results

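The liver makes most of the proteins that form and dissolve a blood clot. 10 of their genes are described here, chosen by symbol and not by how they responded. They are the fibrinogen chain genes FGA, FGB and FGG, the clotting protease genes F2, F7 and F10, the cofactor gene F5, the antithrombin gene SERPINC1, the plasminogen gene PLG and the α2-antiplasmin gene SERPINF2. All 10 were found among the 86369 gene identifiers of the deposited count table, and 9 of the 13840 genes with enough counts to be tested were among them, since PLG had no count in any library.

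The cells were HepG2, an established line of human hepatocellular carcinoma that keeps expressing many plasma protein genes. They had been lipofected with an siRNA against NAT10 (siNAT10), the enzyme that acetylates cytidines in RNA, or with a negative control siRNA (siControl), and RNA was taken 2 days later. The 8 libraries were 4 per group, with replicates 1 and 2 of each group in batch 1 and replicates 3 and 4 of each group in batch 2, as the labels call them. The labels do not say that replicates came from separate cultures, so the p-values measure the spread between these libraries, which may be technical. All libraries came from a single cell line, and no library of untransfected cells was analysed here.

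Fibrinogen is a hexamer built from paired Aα, Bβ and γ chains, the products of FGA, FGB and FGG, which hepatocytes join before secretion. At a site of injury, activated factor VII starts a cascade in which factor X, with its cofactor factor V, cleaves prothrombin (F2) to thrombin, and thrombin turns fibrinogen into fibrin. Antithrombin blocks thrombin and activated factor X, plasmin made from plasminogen dissolves fibrin, and α2-antiplasmin blocks plasmin. In the liver the fibrinogen genes are acute-phase genes, driven by interleukin-6 through STAT3 and by the factors HNF1 and C/EBP.

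The fibrinogen chain genes lie side by side on chromosome 4. On GRCh38 with GENCODE 44 annotation, FGB (ENSG00000171564) spans chr4:154563011-154572807 on the plus strand, FGA (ENSG00000171560) spans chr4:154583126-154590742 on the minus strand, and FGG (ENSG00000171557) spans chr4:154604134-154612967 on the minus strand. The gap from FGB to FGA is 10318 bp and that from FGA to FGG is 13391 bp, with 0 protein-coding genes in either. F7 (ENSG00000057593, chr13:113105788-113120685) and F10 (ENSG00000126218, chr13:113122799-113149529) are neighbours too, both on the plus strand and 2113 bp apart. The other genes stand alone: F2 (ENSG00000180210) at chr11:46719196-46739506, F5 (ENSG00000198734) at chr1:169511951-169586588, SERPINC1 (ENSG00000117601) at chr1:173903800-173917327, PLG (ENSG00000122194) at chr6:160702194-160754097 and SERPINF2 (ENSG00000167711) at chr17:1742836-1755265. F5 and SERPINC1 share a chromosome but lie 4317211 bp apart, with 36 protein-coding genes between them.

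The start regions of the fibrinogen genes are shown because the 3 chains had fitted changes in the same direction, and that of F2 because it is the most abundant of the 10 transcripts and its fitted change had the opposite sign. Sequences are from RefSeq (GRCh38.p14), 5′ to 3′ on the gene's strand, and for FGA, FGB and F2 each is the 250 bases before the RefSeq start, which equals the GENCODE start for FGA, lies 31 bases upstream of it for FGB and 17 bases downstream of it for F2. For FGG, 30 bases are shown, since GENCODE places part of this region in the first exon of longer FGG transcripts. Capitals mark matches to 4 motifs searched on both strands: GTTAATNAT for HNF1, CTGGGAA for the interleukin-6 response element, TTGCNNAA for C/EBP and CAAAGTCCA for HNF4.
FGA, chr4:154590743-154590992, minus strand: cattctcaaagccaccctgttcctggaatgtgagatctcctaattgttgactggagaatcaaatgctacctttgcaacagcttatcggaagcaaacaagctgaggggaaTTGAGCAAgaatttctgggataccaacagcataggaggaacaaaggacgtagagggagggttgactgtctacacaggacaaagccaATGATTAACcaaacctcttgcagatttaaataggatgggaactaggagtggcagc
FGB, chr4:154562730-154562979, plus strand: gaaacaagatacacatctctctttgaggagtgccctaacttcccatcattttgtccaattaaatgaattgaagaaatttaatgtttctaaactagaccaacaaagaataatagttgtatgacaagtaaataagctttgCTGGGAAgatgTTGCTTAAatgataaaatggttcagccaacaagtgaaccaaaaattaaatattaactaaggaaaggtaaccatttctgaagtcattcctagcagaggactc
FGG, chr4:154612799-154612828, minus strand: gtgtgcaaaatCTGGGAAcctgacagtata
F2, chr11:46718963-46719212, plus strand: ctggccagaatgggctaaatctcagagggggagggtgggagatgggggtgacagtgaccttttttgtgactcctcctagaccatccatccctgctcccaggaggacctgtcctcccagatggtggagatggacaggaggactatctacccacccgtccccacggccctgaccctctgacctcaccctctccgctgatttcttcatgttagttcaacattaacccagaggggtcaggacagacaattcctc

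Counted from the RefSeq start, FGA held an HNF1 match 55 bases and a C/EBP match 141 bases before its start, both on the opposite strand. FGB held a match to the interleukin-6 response element 112 bases and a C/EBP match 101 bases before its start. These lay 143 and 132 bases before its second RefSeq start, which is the GENCODE start. FGG held a match to the interleukin-6 response element 161 bases before its RefSeq start. That start lies 311 bases downstream of the GENCODE start, so the match lies within the GENCODE gene. F2, F5 and F7 held no exact match to any of the 4 motifs in the searched window of 300 bases. The window runs from 250 before to 50 after the start. F10 held matches to the interleukin-6 response element and the HNF4 motif, and PLG to the interleukin-6 response element and the HNF1 motif. Of all 35116 RefSeq windows of this length, 0.79% held the HNF1 motif, 10.8% the interleukin-6 response element, 10.5% the C/EBP motif and 0.38% the HNF4 motif. Windows were found for 8 of the 10 genes; SERPINC1 and SERPINF2 had no entry. Only exact matches to these letters were counted, so a site that differs from them by a base would be missed. A gene without a match may therefore still hold a site for the factor. A match is a description of the letters, not of binding.

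The libraries held between 9731718 and 27977110 counts, of which the 10 genes took 0.165% to 0.205%. Levels are given as CPM, counts scaled to the TMM-adjusted library total. NAT10 itself was at 44.7, 39.2, 77.8 and 48.9 CPM in siControl replicates 1 to 4 and at 13.1, 12.2, 20.1 and 22.3 in siNAT10. Its fitted log2 fold change was -1.66 ± 0.14 (SE), with an adjusted p of 2.0e-05 in edgeR's quasi-likelihood test, leaving 31.6% of the control level. The exact two-sided permutation test on log2(CPM + 0.5) gave p = 0.029, the smallest that 70 arrangements allow. NAT10 was called in every alternative fit except that on batch 2 alone, where the adjusted p was 0.086.

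Among the 10 genes, FGG was the one whose transcript level changed after NAT10 siRNA by the test over all genes: it rose by 39.3%. FGA and FGB had fitted changes of the same sign but did not pass, and F2, F5, F7, F10 and SERPINC1 had fitted changes of the opposite sign and did not pass. Of the 9 tested genes, 1 was called higher and 0 lower at an adjusted p under 0.05, against 0.816% of all tested genes called higher and 2.28% called in either direction (113 higher and 202 lower; with library size alone as the scaling, 138 higher and 149 lower). A single called gene of 9 is too few to say more of the group. An unadjusted p under 0.05 was reached by 4 of the 9 genes, FGG, FGB, F2 and F5, against 15.7% of all tested genes. The median log2 fold change was -0.13 over the 9 genes and -0.0024 over all tested genes.

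**Figure D1:**
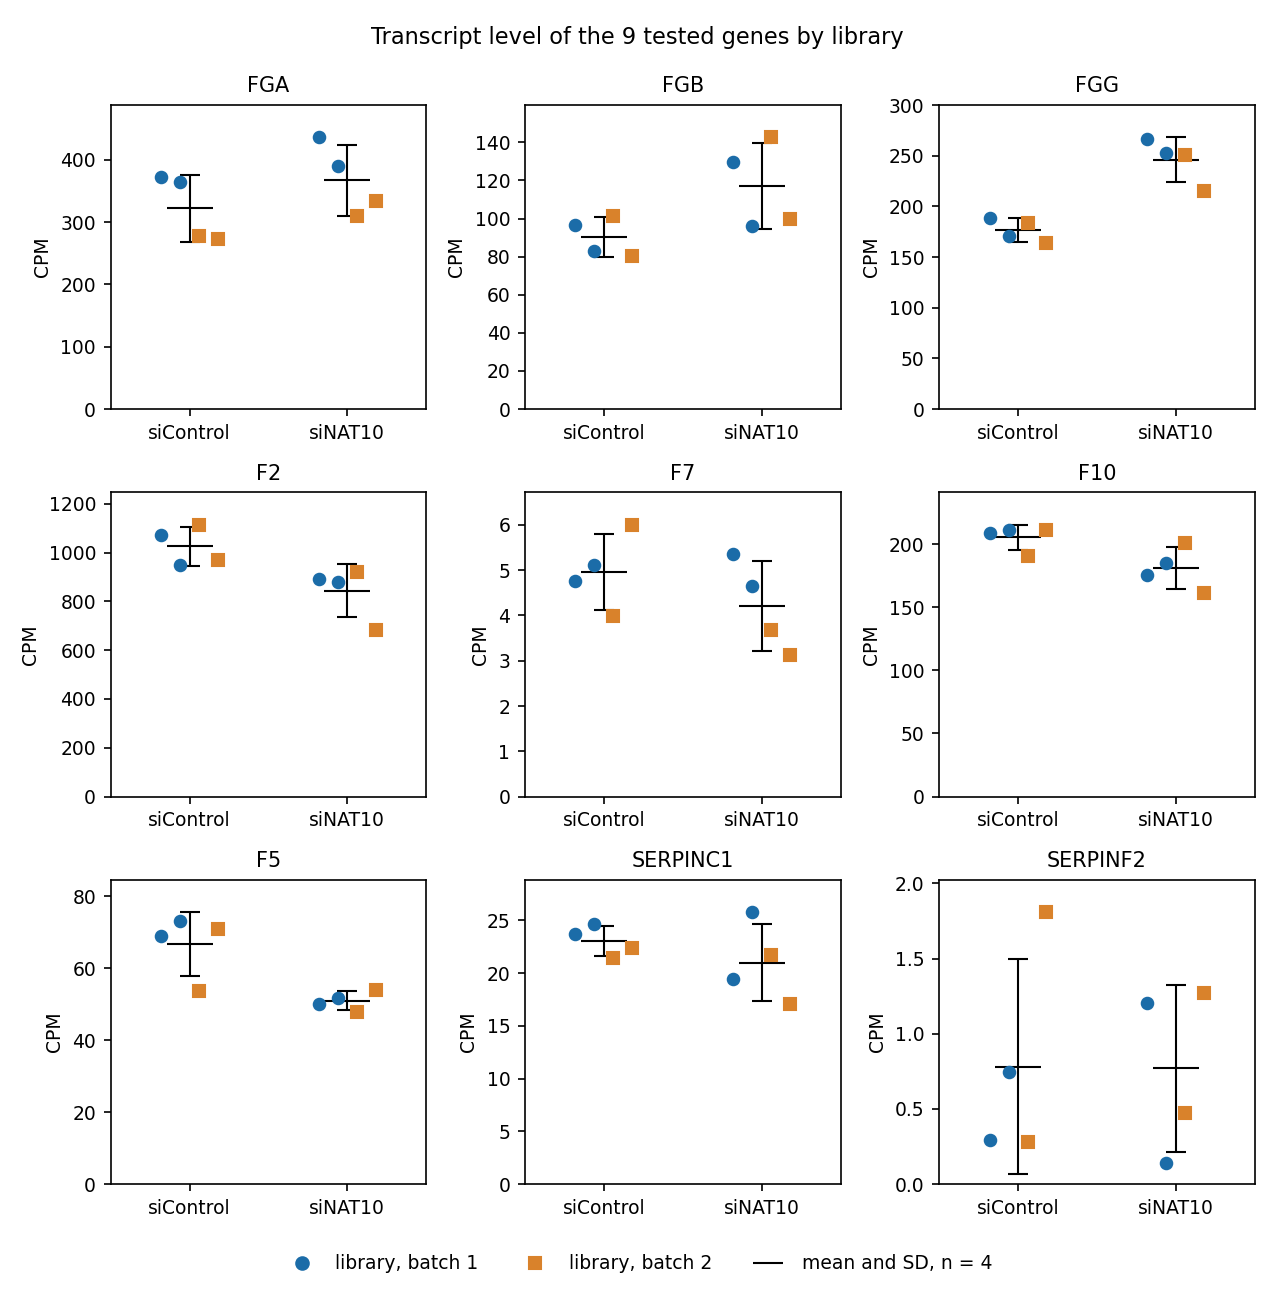
Transcript level (CPM, linear axis from 0) of each tested gene in each library, by siRNA group. Circles are batch 1, squares batch 2, and bars the mean and SD of 4 libraries; FGG is higher and F2 lower in all siNAT10 libraries than in any siControl library, while the groups overlap for the other 7 genes.

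FGG encodes the γ chain, which carries sites through which fibrin monomers join and through which fibrinogen binds platelets. It was at 189, 171, 183 and 163 CPM in siControl replicates 1 to 4 and at 267, 252, 251 and 215 CPM in siNAT10 replicates 1 to 4. Every siNAT10 library lay above every siControl library. The means were 177 ± 11.7 and 246 ± 21.8 CPM (SD, n = 4 each), and the fitted log2 fold change was 0.48 ± 0.10 (SE; 95% confidence interval 0.27 to 0.69), with an adjusted p of 0.020 in edgeR's quasi-likelihood test. Fits to the 4 libraries of batch 1 and to the 4 of batch 2 gave log2 fold changes of 0.53 and 0.43, with edgeR adjusted p-values of 0.067 and 0.66. The size of the change stayed between 0.43 and 0.53 in all 18 alternative fits.

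With 1 library left out, the FGG call held in 2 of 8 fits, while the log2 fold change stayed between 0.44 and 0.53. Leaving out siControl replicate 1, 2 or 4 gave edgeR adjusted p-values of 0.063, 0.081 and 0.060, and leaving out siNAT10 replicate 1, 2 or 3 gave 0.072, 0.068 and 0.067. The call held without siControl replicate 3 (adjusted p = 0.016) and without siNAT10 replicate 4 (adjusted p = 0.014). It was lost without the batch term (adjusted p = 0.23). Of the 18 alternative fits, 9 kept the call, among them DESeq2 (adjusted p = 2.0e-04) and the replicate block (edgeR adjusted p = 0.012), and 9 lost it.

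FGB encodes the Bβ chain, whose N-terminal fibrinopeptide B is cut off by thrombin. FGB was at 96.5, 82.8, 101.5 and 80.2 CPM in siControl and at 130, 96.2, 143 and 99.6 CPM in siNAT10. The groups overlapped, since siNAT10 replicates 2 and 4 lay below siControl replicate 3. Replicates 1 and 3 were the higher libraries of their batch in both groups. The means were 90.3 ± 10.4 and 117 ± 22.8 CPM (SD, n = 4), with a log2 fold change of 0.37 ± 0.13 (SE; 95% interval 0.092 to 0.65) and an edgeR adjusted p of 0.17. It was 0.33 in batch 1 and 0.42 in batch 2, and between 0.26 and 0.47 over the alternatives.

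FGA encodes the Aα chain, the source of fibrinopeptide A, and was the most abundant of the 3 chain transcripts. It was at 373, 364, 278 and 272 CPM in siControl and at 436, 390, 309 and 334 CPM in siNAT10. In both groups the batch 2 libraries were lower than the batch 1 libraries, and within each batch both siNAT10 libraries were above both siControl libraries. The means were 322 ± 53.9 and 367 ± 56.9 CPM (SD, n = 4), with a log2 fold change of 0.19 ± 0.095 (SE; 95% interval -0.0078 to 0.40) and an edgeR adjusted p of 0.34. The difference between batches was larger than that between siRNAs: batch 2 minus batch 1 was -0.39 ± 0.095 (SE) on the log2 scale, with an edgeR adjusted p of 0.0069. FGA was the single gene of the 9 called for batch, against 25.3% of all tested genes, and the call held without each library in turn (adjusted p 0.0076 to 0.030).

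The chains are assembled in equal numbers, so the proportion of their transcripts was compared as well. From log2(CPM + 0.5), the FGG to FGA ratio was 0.507, 0.469, 0.659 and 0.601 in siControl replicates 1 to 4 and 0.612, 0.648, 0.812 and 0.645 in siNAT10. The ratio was higher in batch 2 than in batch 1 in siControl, and the groups overlapped. Its mean log2 difference, siNAT10 minus siControl, was 0.28, with p = 0.14 in an exact two-sided permutation test (0.43 after Benjamini-Hochberg adjustment over 3 ratios) and p = 0.11 with labels exchanged within batches. The FGB to FGA ratio differed by 0.17 (exact permutation p = 0.51; within batches p = 0.39) and the FGB to FGG ratio by -0.12 (exact permutation p = 0.43; within batches p = 0.39). The smallest p these designs can give is 0.029, or 0.056 within batches. Without siControl replicate 3 the FGG to FGA difference was 0.37, with an exact permutation p of 0.029, and without siNAT10 replicate 3 the FGB to FGA difference was -0.012. Between libraries of the same replicate number, the FGG to FGA and the FGB to FGA ratio were higher in siNAT10 in 4 of 4 pairs, and the FGB to FGG ratio in 1 of 4. Exchanging labels within pairs gave exact permutation p-values of 0.125 for FGG to FGA and FGB to FGA, the smallest that 4 pairs allow, and 0.25 for FGB to FGG. A p under 0.05 was thus out of reach in the paired test and was not reached in the unpaired one. The pairing by replicate number was an assumption.

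Prothrombin (F2) is the precursor of thrombin and its transcript was the most abundant of the 10. It was at 1072, 948, 1113 and 968 CPM in siControl and at 891, 880, 922 and 683 CPM in siNAT10. Every siNAT10 library lay below every siControl library, and siNAT10 replicate 4, the library with the fewest counts, was the lowest. The means were 1025 ± 80.1 and 844 ± 109 CPM (SD, n = 4), with a log2 fold change of -0.28 ± 0.12 (SE; 95% interval -0.53 to -0.038) and an edgeR adjusted p of 0.24, so F2 was not called. The within-batch values were -0.19 and -0.37. Groups did not overlap for 2 of the 9 genes, FGG and F2, against 5.4% of all tested genes. Every siNAT10 library lay beyond both siControl libraries of its own batch, in one direction, for 3 of the 9 genes (FGG, FGA and F2), against 14.7% of all tested genes.

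Factor V (F5), the cofactor with which activated factor X cleaves prothrombin, had the most negative fitted change of the 9. It was at 68.8, 73.2, 53.7 and 70.9 CPM in siControl and at 50.1, 51.8, 47.8 and 54.0 CPM in siNAT10. The groups overlapped through siControl replicate 3 alone, which lay just below siNAT10 replicate 4. The means were 66.6 ± 8.81 and 50.9 ± 2.60 CPM (SD, n = 4), with a log2 fold change of -0.39 ± 0.11 (SE; 95% interval -0.62 to -0.15) and an edgeR adjusted p of 0.080. With the replicate number as a block the adjusted p was 0.045, so that 2 of the 9 genes, FGG and F5, were then called. F5 was called also without siControl replicate 3 (edgeR adjusted p = 0.028) and by DESeq2 (adjusted p = 0.040). Its within-batch values were -0.47 and -0.29.

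Factor X (F10) is the protease that cleaves prothrombin and is made, like factor VII and prothrombin, with vitamin K-dependent γ-carboxylated residues. F10 was at 209, 211, 191 and 211 CPM in siControl and at 176, 185, 201 and 161 CPM in siNAT10. The groups overlapped, since siNAT10 replicate 3 was above siControl replicate 3. The means were 205 ± 9.75 and 181 ± 16.8 CPM (SD, n = 4), and the log2 fold change was -0.18 ± 0.10 (SE; edgeR adjusted p = 0.41). A long non-coding RNA gene on the other strand, ENSG00000283828, shares exon bases with F10 within the last 1000 bases of the gene. It held 2 to 20 counts per library, and since whether reads were counted by strand is not given in the sources used here, reads of the pair cannot be told apart.

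Factor VII (F7), the protease that starts the cascade with tissue factor, was at 4.76, 5.12, 3.98 and 6.00 CPM in siControl and at 5.36, 4.66, 3.69 and 3.13 CPM in siNAT10, from 32 to 134 counts per library. The log2 fold change was -0.23 ± 0.20 (SE; 95% interval -0.65 to 0.20; edgeR adjusted p = 0.65), with 0.020 in batch 1 and -0.53 in batch 2. F7 and F10 lie next to each other, and neither passed the test.

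Antithrombin (SERPINC1), the serpin that heparin activates, was at 23.7, 24.6, 21.4 and 22.4 CPM in siControl and at 19.4, 25.8, 21.7 and 17.1 CPM in siNAT10. The siNAT10 libraries spread to both sides of the siControl range. The log2 fold change was -0.13 ± 0.12 (SE; 95% interval -0.39 to 0.13), with an edgeR adjusted p of 0.67.

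The fibrinolysis pair had few counts or none. SERPINF2 was at 0.291, 0.748, 0.281 and 1.81 CPM in siControl and at 1.20, 0.139, 0.471 and 1.27 CPM in siNAT10, from 4 to 25 counts per library. Its log2 fold change was 0.058 ± 0.64 (SE), with a 95% interval from -1.30 to 1.42, so the sign of a change was not resolved. The sign of the fitted change was negative in 6 of its 16 alternative fits, among them those without siControl replicate 1 (-0.23), siControl replicate 3 (-0.30), siNAT10 replicate 1 (-0.70) and siNAT10 replicate 4 (-0.16).

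PLG was listed at 0 in all 8 libraries. Taking 3 counts as the upper limit that a count of 0 allows, the limit was 0.104 to 0.293 CPM per library, for counting error only. A 0 in this table is not evidence that a transcript was absent, because transcripts that nearly all human cells or most HepG2 cultures make were also at or near 0. TUBB had no count in any library, B2M had 1 count in all 8 together, and APOB, APOE and HP had 7, 17 and 14. LPA, the close paralog of PLG, and the factor IX gene F9 had none. ACTB held 11815 to 35613 counts per library and GAPDH 16728 to 76939. These comparison genes were chosen after their values were seen.

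**Figure D2:**
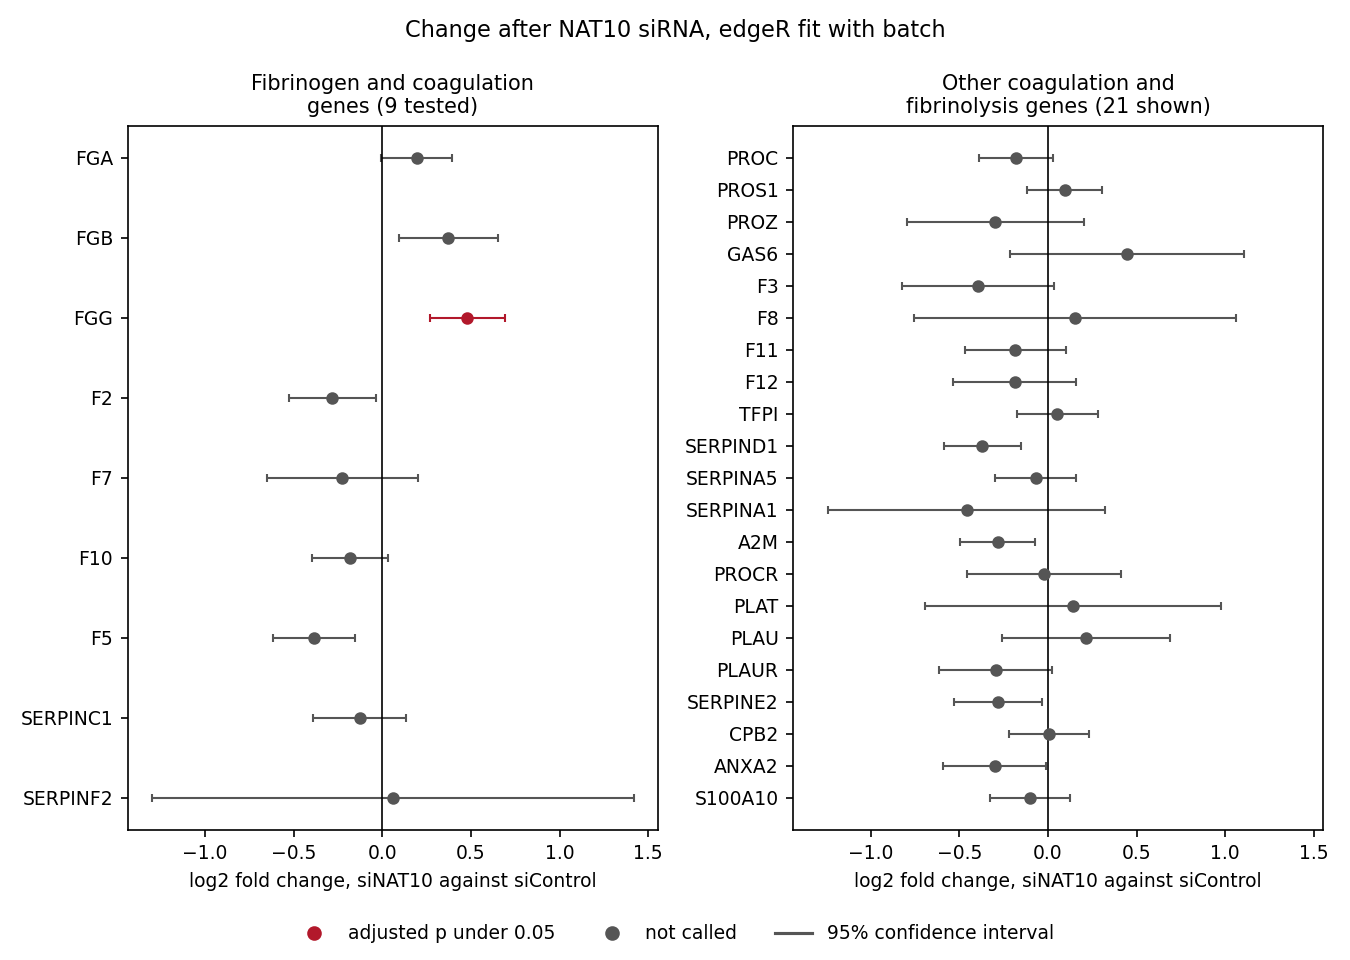
Fitted log2 fold change (horizontal axis, siNAT10 against siControl) with 95% confidence interval for the 9 tested genes and for 21 other coagulation and fibrinolysis genes. Points in red have an adjusted p under 0.05: FGG, at 0.48, is the single one in either panel.

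The order of levels in siControl was F2, FGA, F10, FGG, FGB, F5, SERPINC1, F7, SERPINF2 and PLG. In siNAT10, FGG stood above F10 and the rest of the order was unchanged. QuantSeq primes at the 3′ end and gives about 1 fragment per transcript, so CPM was compared between genes without dividing by transcript length, although the counts of TUBB and B2M show that a gene can be undercounted. No gene's range over the 4 libraries overlapped that of the next gene in the order, in either group. In siControl, 96.2% of tested genes had a lower mean than FGA, 92.7% than FGG, 80.3% than F5, 58.6% than SERPINC1 and 30.4% than F7.

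The crossing of FGG and F10 shows in ratios within each library, which do not depend on the scaling between libraries. FGG was 0.172 ± 0.0069 of F2 in siControl and 0.293 ± 0.018 in siNAT10 (SD, n = 4). The siControl libraries ran from 0.165 to 0.18 and the siNAT10 libraries from 0.272 to 0.315. FGG to F5 was 2.7 ± 0.52 and 4.85 ± 0.61, and FGG to F10 was 0.862 ± 0.086 and 1.36 ± 0.11. Neither of these ratios overlapped between groups. The ratios were chosen after the levels were seen and are given as a description. FGG had a positive and F2, F5 and F10 had negative fitted changes. The separation of the ratios thus follows largely from levels given above and is no separate result.

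**Figure D3:**
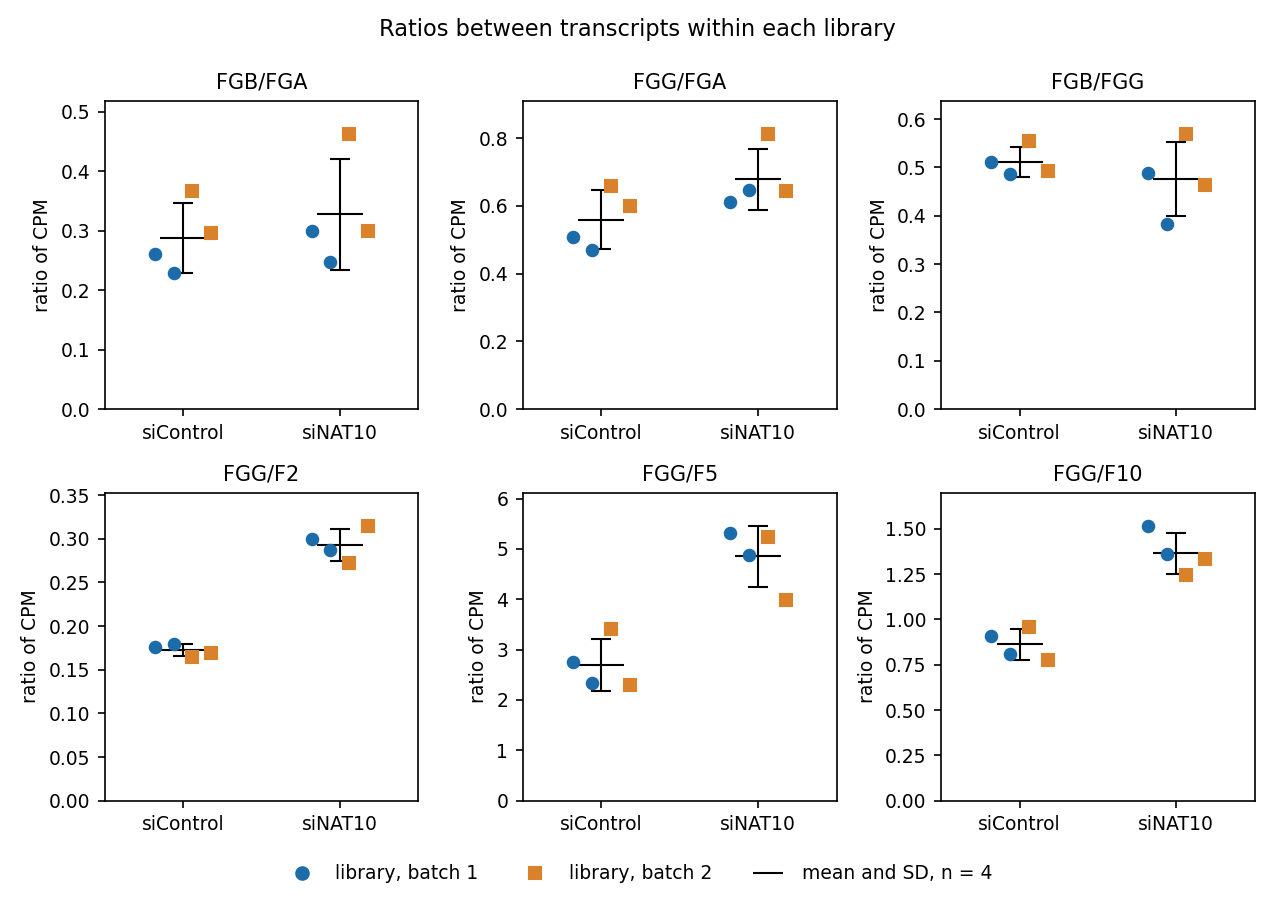
Ratio of 2 transcript levels in each library (vertical axes from 0; chain ratios from CPM + 0.5), with the mean and SD of 4 libraries per group; circles are batch 1 and squares batch 2. The chain ratios in the upper row overlap between groups, while FGG relative to F2, F5 and F10 in the lower row does not.

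No gene's response was shown to differ between batches. By edgeR, a batch-by-siRNA interaction term passed for 0 of the 9 genes and for 0% of all tested genes, of which 421 had an unadjusted p under 0.05. The unadjusted interaction p of the 9 genes lay between 0.19 and 0.77. With 2 libraries per group and batch, such a test has little precision.

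The other genes of coagulation and fibrinolysis gave no call in the edgeR fit. Of 34 such genes on lists of vitamin K-dependent proteins, proteases and cofactors, inhibitors and fibrinolysis genes, 22 were tested and 0 were called by edgeR, with 5 at an unadjusted p under 0.05. DESeq2 called 0 of the 22 higher and 2 lower, among them SERPIND1 (adjusted p = 0.026). Fitted changes were positive for 7 and negative for 15, with a median of -0.18.

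Among the inhibitors, A2M, a broad protease inhibitor, was at 1148 and 937 CPM (log2 fold change -0.28, edgeR adjusted p = 0.17), and SERPINA5, the protein C inhibitor, at 1019 and 972 (-0.068, adjusted p = 0.82). SERPIND1, or heparin cofactor II, was the 1 gene of the 22 whose groups did not overlap, at 132 ± 10.9 and 102 ± 8.0 CPM (-0.37, adjusted p = 0.075); it was singled out after its values were seen. PROC and PROS1, which encode the anticoagulant proteins C and S, had log2 fold changes of -0.18 and 0.095. F11 and F12, of the contact pathway, had -0.18 and -0.19, and S100A10, a plasminogen receptor subunit, had -0.10. The edgeR adjusted p of these 5 genes lay between 0.40 and 0.72.

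1 gene of the machinery that finishes and exports clotting factors fell. FURIN, the protease that removes propeptides from precursors in the secretory pathway, went from 204 ± 29.3 to 140 ± 22.1 CPM (SD, n = 4; log2 fold change -0.54 ± 0.12 SE, edgeR adjusted p = 0.023). It was the 1 gene called of 6 tested on this list of 7, whose median was -0.14. VKORC1, the vitamin K epoxide reductase, did not pass (247 and 220 CPM, -0.17, edgeR adjusted p = 0.45). The FURIN call was lost without siControl replicate 2 (adjusted p = 0.097), siNAT10 replicate 1 (0.055), replicate 2 (0.10) or replicate 4 (0.0502), without the batch term (0.31) and in each batch alone (0.099 and 0.54). Its log2 fold change stayed between -0.61 and -0.46 in all 18 alternatives.

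The liver transcription factors that bind clotting gene promoters gave 0 calls of 9 tested by edgeR (2 at an unadjusted p under 0.05) and 0 by DESeq2, with a median of 0.090. HNF4A was at 357 ± 109 and 375 ± 88 CPM (edgeR adjusted p = 0.73) and CEBPB at 292 ± 69 and 356 ± 156 (adjusted p = 0.42). Batch 2 minus batch 1 was 0.67 for HNF4A and -0.83 for CEBPB on the log2 scale (edgeR adjusted p = 2.4e-04 and 2.0e-04). Batch was called for 5 of the 9 factors, against 25.3% of all tested genes. The siRNA log2 fold change of CEBPB was 0.47 in batch 1 alone and -0.028 in batch 2 alone (edgeR adjusted p = 0.16 and 0.98). Fitted changes were positive for 5 of these factors and negative for 4. The 2 at an unadjusted p under 0.05 were both negative: CEBPD (log2 fold change -0.42, edgeR adjusted p = 0.097) and FOXA2 (-0.31, 0.15). They were singled out after their values were seen. The interleukin-6 receptor and STAT3 list gave 0 calls of 6 tested by edgeR (2 at an unadjusted p under 0.05) and 0 by DESeq2, with a median of 0.10. Fitted changes were positive for 4 of these genes and negative for 2, IL6R and STAT3. IL6R was at 95 and 76.6 CPM and STAT3 at 80.8 and 71.6 CPM, with edgeR adjusted p-values of 0.21 and 0.75. The 2 at an unadjusted p under 0.05 were IL6R (log2 fold change -0.33) and IL6ST (0.30, edgeR adjusted p = 0.23). IL6ST was at 13.8 and 17.0 CPM, with groups that did not overlap, and was singled out after its values were seen. IL6 itself had no count.

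Of 15 other acute-phase genes, 9 were tested; edgeR called 0 higher and 1 lower, and DESeq2 0 higher and 2 lower. CP, which encodes the copper-carrying ferroxidase ceruloplasmin, went from 62.4 ± 6.9 to 31.6 ± 5.1 CPM (SD, n = 4; log2 fold change -0.99 ± 0.13 SE, edgeR adjusted p = 5.7e-04), and the call held without each library in turn. The gene DESeq2 called beside CP was SAA4, a serum amyloid A gene, at 7.98 ± 1.3 and 5.25 ± 1.1 CPM, with groups that did not overlap (edgeR log2 fold change -0.61, adjusted p = 0.055; DESeq2 adjusted p = 0.027; edgeR adjusted p with the replicate block = 0.045); it was singled out after its values were seen. HAMP, the gene of the iron hormone hepcidin, was at 142, 140, 29.1 and 18.4 CPM in siControl and at 175, 288, 14.7 and 19.8 CPM in siNAT10, so the batches stood farther apart than the siRNA groups (batch 2 minus batch 1, -3.13 on the log2 scale, edgeR adjusted p = 5.9e-07). Its siRNA log2 fold change was 0.71 in batch 1 alone (edgeR adjusted p = 0.041) and -0.47 in batch 2 alone (0.72), with an interaction p of 0.0031 in edgeR that did not pass adjustment (0.9996), and 0.18 over both batches (adjusted p = 0.75). The median of the 9 genes was -0.13. FGG and CP are both listed as acute-phase genes, and FGG rose while CP fell.

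Beside the negative fitted changes of F2, F5 and F10 stands the summed level of 7 hepatocyte markers, at 9210 to 9789 CPM in siControl and 7228 to 7983 CPM in siNAT10, without overlap. Most of this sum was ALB, TF and AFP. All 6 tested markers had negative fitted changes in the fit as reported, with a median of -0.29. APOA1 turned positive in 8 of 18 alternatives, among them DESeq2, RLE scaling and library size alone, and reached 0.082 in batch 2 alone. EdgeR called 1 and DESeq2 2 of the 6 markers, all lower. The 1 called by edgeR was TF, or transferrin, at 2086 and 1474 CPM (log2 fold change -0.49, edgeR adjusted p = 0.023). ALB, the albumin gene, was at 4411 and 3422 CPM (edgeR adjusted p = 0.072) and was called by DESeq2 (adjusted p = 0.0024) and by edgeR without the low-count filter (0.013). APOA1, at 837 and 829 CPM, gave -0.0083 on the log2 scale (edgeR adjusted p = 0.99), and APOB was near 0 as given above. The TF call was lost without siControl replicate 1 or 3 (adjusted p = 0.080 and 0.053) and without siNAT10 replicate 1, 2 or 3 (0.080, 0.057 and 0.091). It was lost too without the batch term (edgeR adjusted p = 0.23) and in each batch alone (0.27 and 0.48). The part of these markers in the clotting gene values was not tested. In bulk RNA of a single line, fewer cells that make a transcript and less of it per cell cannot be told apart.

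Markers of other cells were nearly all at or near 0. As for PLG above, a 0 in this table is not evidence that a transcript was absent. The 5 endothelial markers summed to 0.23 to 0.72 CPM in siControl and 0 to 0.28 in siNAT10, with TEK, KDR and ERG at 0. The platelet markers summed to 4.3 to 7.7 and 3.9 to 5.5 CPM, with PF4, PPBP, GP9 and GP1BA at 0. The fibroblast markers summed to 0.58 to 1.4 and 0.29 to 1.3 CPM, with COL3A1, DCN and LUM at 0. The leukocyte markers summed to 410 to 558 and 336 to 391 CPM, with PTPRC at 0, and nearly all of it was LYZ, the lysozyme gene, at 475 and 355 CPM (log2 fold change -0.42, edgeR adjusted p = 0.043). The LYZ call held without siControl replicate 4 (adjusted p = 0.049) and was lost without any other single library (0.074 to 0.17). It was lost too with library size alone (edgeR adjusted p = 0.065), without the batch term (0.33) and in each batch alone (0.14 and 0.72).

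The 5 protein-coding genes named here had profiles most like the fibrinogen mean. Profiles were compared over the 8 libraries as the root mean square difference in log2(CPM + 0.5), each gene centred on its own mean, among 8130 genes with a mean of at least 8 CPM. They were SLF2 (0.069), a DNA repair factor, AASDH (0.076), HNRNPDL (0.084), an RNA-binding protein, TRMT1 (0.084), a tRNA methyltransferase, and NUBPL (0.088), an assembly factor of respiratory complex I. Against the same mean, FGG lay at 0.084, FGB at 0.14 and FGA at 0.17, and these 3 genes are part of that mean. SLF2 and AASDH lay closer to it than FGG did, HNRNPDL (0.08365) and TRMT1 (0.08439) only slightly closer than FGG (0.08443), and NUBPL lay farther. SLF2 was called higher (31.8 ± 2.0 and 42.8 ± 4.3 CPM, SD, n = 4; log2 fold change 0.43, edgeR adjusted p = 0.040), a call that held without siControl replicate 3 or siNAT10 replicate 4 (adjusted p = 0.028 and 0.030) and was lost without any other single library (0.095 to 0.14). The SLF2 call was lost too without the batch term (edgeR adjusted p = 0.32) and in each batch alone (0.087 and 0.72). AASDH, HNRNPDL, TRMT1 and NUBPL had log2 fold changes of 0.25, 0.34, 0.37 and 0.26 and did not pass. The 5 genes were picked for profiles like the fibrinogen mean, whose 3 genes had positive fitted changes. Positive signs were thus built into the choice and are no separate result.

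**Figure D4:**
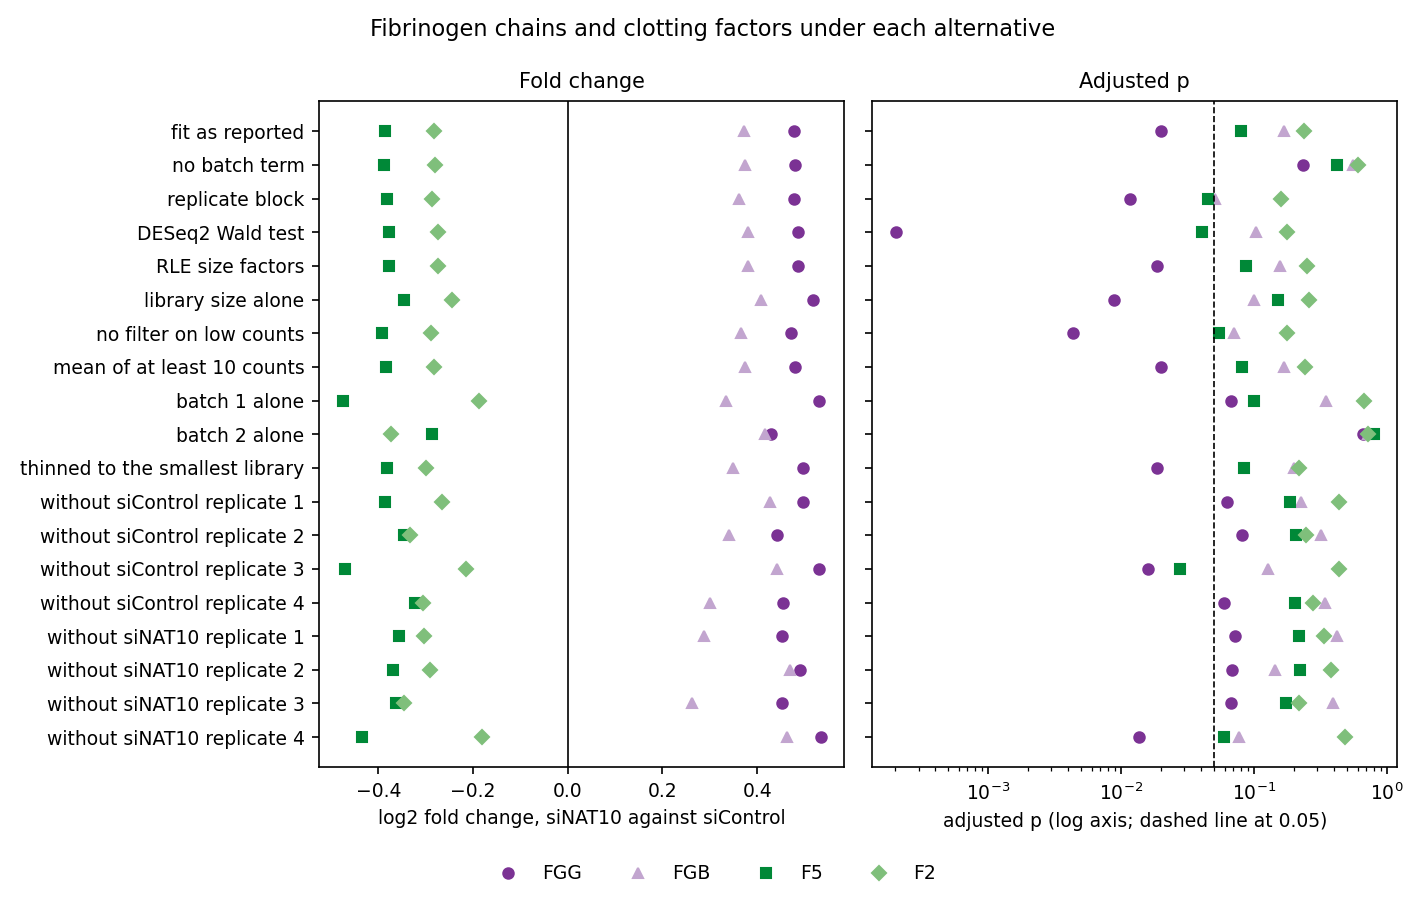
Log2 fold change (left) and adjusted p (right, log axis, dashed line at 0.05) of FGG, FGB, F5 and F2 in the fit as reported and in each of 18 alternatives. FGG stays between 0.43 and 0.53 on the left but lies on both sides of the line on the right.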

How the data were processed

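Counts per gene of poly(A) RNA libraries (Lexogen QuantSeq 3′, paired-end 150 bp) were used as deposited by the authors. The sources name the kit variant in 2 ways and it was not resolved. Per the submitters' processing notes, reads were trimmed with Trim Galore 0.6.10 and cutadapt 3.5, aligned to GRCh38 with STAR 2.7.9a and counted with featureCounts (Subread); strandedness, gene annotation release and treatment of multi-mapping reads are not given in the sources used here. Of the 86369 identifiers, 61458 matched GENCODE 44 and 24911 did not.

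All 8 columns were used. Genes were kept by filterByExpr (minimum count 10), scaled by TMM and tested over all 13840 genes with edgeR 4.0.16 (R 4.3.3, limma 3.58.1) by the quasi-likelihood F test with batch and siRNA as terms, with Benjamini-Hochberg adjustment and calls at an adjusted p under 0.05; a standard error is the log2 fold change divided by the root of F. The scripts were tested on simulated counts. Alternatives were no batch term, the replicate number as a block, DESeq2 1.42.0, other scalings and filters, each batch alone, each library left out, and thinning to 9731718 counts. Same-numbered libraries deviated together across genes (correlations 0.44, 0.43, 0.51 and 0.42). The deviations were from the siRNA group mean, and same-numbered libraries share a batch, so batch is part of these correlations. They cannot show that the numbers pair the libraries, and that pairing is an assumption of the block fits and paired tests. Named genes were NAT10, the 10 genes, the called genes and the 2 most abundant of each list, and the 5 nearest profiles; 1 gene of these lists is counted but not reported here. The genes and lists were chosen with earlier results of these data known. Depth sets the precision of low genes, and the 3-count limit covers counting error only.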

Additional observations from a re-analysis of the deposited data

Results flagged for a closer look

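The F10 level in siControl replicate 3 stood apart from its group, at 191 CPM against 209 to 211 CPM in the other 3 siControl libraries; the gap was 0.858 of the group's whole range, above Dixon's critical value at 95% for 4 samples. It was 1 of 18 groups examined (9 genes in 2 siRNA groups), and chance flags about 1 in 20 groups, or 0.9 here.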

How the results depend on the processing

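The fit as reported called 315 genes and 1 of the 10 genes described. Without the batch term these were 15 and 0, with the replicate block 454 and 2, by DESeq2 601 and 2, without a filter on low counts 595 and 1, in batch 1 alone 173 and 0, and in batch 2 alone 0 and 0 (946 at an unadjusted p under 0.05). Leaving out each library gave 75 to 286 genes and 0 to 2 of the 10. The block changed no other call among the 10 genes; it gave the FGB to FGA, FGG to FGA and FGB to FGG ratios exact permutation p-values of 0.125, 0.125 and 0.25, where 0.125 is the smallest possible. Library size alone, with a median of all genes of 0.037 against -0.0024, called 287 genes, 138 higher and 149 lower, against 113 and 202.

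The interaction of batch and siRNA gave 15 genes without the filter and 0 to 2 with a library left out (2 without siControl replicate 4), and batch gave 2531 to 3627 genes with a library left out. With a library left out, the FGB to FGA difference ran from -0.012 (without siNAT10 replicate 3) to 0.29 and the FGG to FGA difference from 0.20 to 0.37 (without siControl replicate 3, exact permutation p = 0.029).

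The sign turned for SERPINF2 without the batch term (-0.0094), in batch 2 alone (-0.21) and without siControl replicate 1 (-0.23) or 3 (-0.30) or siNAT10 replicate 1 (-0.70) or 4 (-0.16); for F7 and SERPINA5 in batch 1 alone (0.020 and 0.054); for CEBPB, STAT3 and HAMP in batch 2 alone (-0.028, 0.13 and -0.47); for STAT3 and HAMP without siNAT10 replicate 2 (0.011 and -0.11); and for SERPINA5 without siNAT10 replicate 4 (0.0011). With a library left out, the values ran from -0.70 to 0.75 for SERPINF2, -0.15 to 0.0011 for SERPINA5, -0.38 to 0.011 for STAT3 and -0.11 to 0.45 for HAMP. APOA1, at -0.0083 in the fit as reported, was 0.00032 by DESeq2, 0.00031 with RLE scaling, 0.031 with library size alone, 0.082 in batch 2 alone and -0.093 to 0.057 with a library left out. The causes were not tested. FGA, FGB, FGG, F2, F5, F10 and SERPINC1 kept their sign in all 18 alternatives. F7 had 32 to 134 and SERPINF2 4 to 25 counts per library, the fewest of the 9 tested genes.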
